A study of Mus musculus with 4 samples.

Results

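Collagen genes were examined in YAMC, a mouse colon line isolated from young adult animals and described as epithelial, whose immortality is conditional. Every probe set whose only gene symbol in the platform annotation was that of a collagen chain was taken, which gave 58 of the 22690 probe sets in the table, for 36 of 12394 genes. They comprised 17 probe sets of fibrillar collagens, 9 of the basement membrane collagen IV, 4 of collagen VI and 28 of other types. One group of cells received no treatment, and the other received conditioned medium of the probiotic Lactobacillus GG (LGG) for 16 h. Each group has 2 Affymetrix 430A arrays, 1 at each of 2 dates given in the titles, called date 1 and date 2 (replicates 1 and 2). What the dates mark, and whether the arrays came from separate cultures, is not given in the sources used here, so p-values measure only the spread between these arrays, which may be technical. Medium without bacterial products was not analysed here, so the products and the medium itself cannot be told apart.

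Collagens are proteins whose chains are wound into a triple helix, and most are secreted, while some, such as that of Col25a1, span the membrane. Fibrillar collagens such as types I, III and V assemble into the banded fibrils that bear tension in connective tissue. Collagen IV forms the sheet-like network of basement membranes under epithelia, collagen VI forms beaded filaments close to cell surfaces, and types such as XII and XIV sit on the surface of fibrils. In the gut wall, fibrillar collagens are made mainly by mesenchymal cells, while epithelium rests on collagen IV.

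Of the 58 probe sets, 28 for 20 genes had values on all arrays and a mean intensity of at least 101, and were tested. Another 20 were below this level, and 10 had no value on either array of date 1, as was the case for 6307 probe sets of the whole table. Intensities are the deposited linear values, and log2 changes are on log2(intensity + 25.2), which understates the change of dim probe sets. Precision is limited by having so few arrays. The labelled cell type was checked against markers. Of the epithelial markers, Krt8, Krt18 and Krt19 were at 431 to 1967 over the 4 arrays, while Epcam was at 6.0 to 9.0, Vil1 at 1.7 to 10.5, Cdx1 at 1.8 to 5.8 and Cdh1 at 8.7 to 41.8. The mesenchymal markers Vim (9532 to 12489) and Cdh11 (1765 to 5367) were well above the level used as a filter, and 9 of the 12 mesenchymal markers passed it. Pdgfrb (48.2 to 80.1), Thy1 (51.4 to 93.7) and Prrx1 (63.1 and 60.4 at date 2, its only values) did not. Epcam, Vil1 and Cdx1, which define intestinal epithelium, were thus near 0. Ptprc, the pan-leukocyte marker, was at 15.4 to 37.2.

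Col6a1 and Col6a2, which encode chains of collagen VI, and Col12a1 of collagen XII fell after LGG conditioned medium, and no collagen probe set was called higher. Limma with date as a block called 4 of the 28 tested probe sets lower at a Benjamini-Hochberg adjusted p under 0.05, against 3.86% of all 10333 probe sets tested, and 0 higher, against 2.69%, or 6.55% in either direction. The 4 were the only probe set of Col6a1, both of Col6a2 and that of Col12a1. At an unadjusted p under 0.05 there were 10 of 28, against 20.5% of all. Counted by the brightest probe set of each gene, 3 of 20 collagen genes were lower, against 3.5% of 6952 genes, and 0 higher, against 3.01%. The collagens were chosen with earlier results of these data known, so no set test was run. In RNA from whole cultures, fewer cells of a type and less RNA per cell cannot be told apart.

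**Figure D1:**
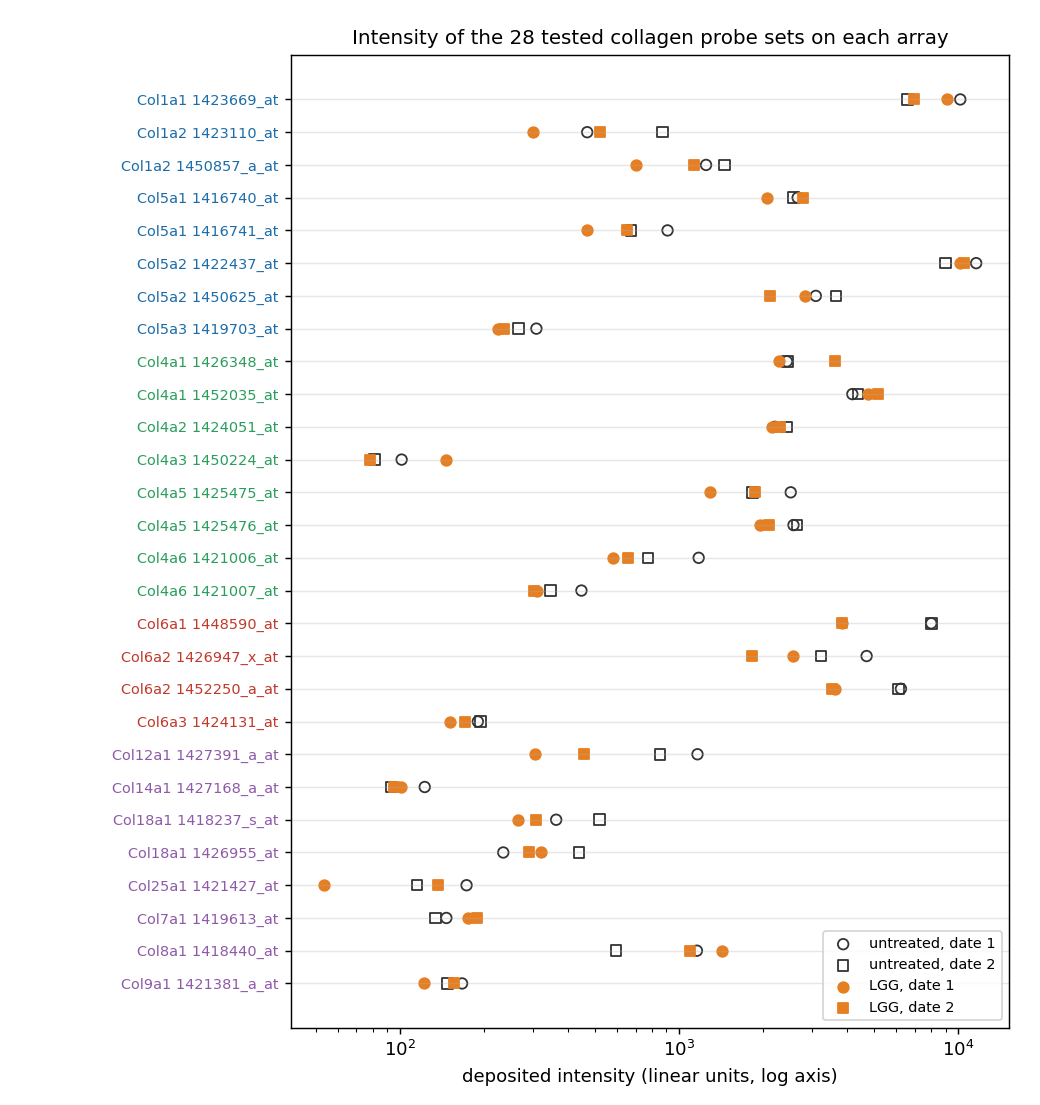
Deposited intensity (log axis) of the 28 tested collagen probe sets on each of the 4 arrays, untreated in open dark symbols and LGG in filled orange ones, circles for date 1 and squares for date 2. Label colours mark fibrillar (blue), basement membrane (green), collagen VI (red) and other (purple) chains; both LGG arrays lie clearly left of both untreated arrays for Col6a1, Col6a2 and Col12a1, while Col1a1 and Col4a2 overlap.

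Collagen VI filaments are built from chains alpha 1, alpha 2 and alpha 3, encoded by Col6a1, Col6a2 and Col6a3. Col6a1 and Col6a2 lie close together on mouse chromosome 10, on the same strand. Since they moved together, the 250 bases before the start of each are shown, from RefSeq on GRCm38.p6, for Col6a2 before the more upstream of its 2 starts in the table. Both strands were searched for the 5 motifs spelled out after the sequences, and capitals mark the matches.
Col6a1, chr10:76726045-76726294, minus strand: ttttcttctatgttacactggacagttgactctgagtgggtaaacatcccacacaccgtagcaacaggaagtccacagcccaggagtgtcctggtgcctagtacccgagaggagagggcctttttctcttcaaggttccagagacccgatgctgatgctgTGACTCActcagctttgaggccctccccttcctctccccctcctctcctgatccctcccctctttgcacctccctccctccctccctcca
Col6a2, chr10:76623631-76623880, minus strand: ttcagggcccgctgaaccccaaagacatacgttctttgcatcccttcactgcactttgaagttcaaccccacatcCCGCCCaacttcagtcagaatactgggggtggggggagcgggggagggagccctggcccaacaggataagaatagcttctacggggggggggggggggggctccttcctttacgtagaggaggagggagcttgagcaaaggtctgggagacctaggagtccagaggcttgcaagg
The Col6a1 stretch holds 1 AP-1 match and no other, and the Col6a2 stretch holds 1 GC box. The window before the other Col6a2 start, not shown, holds 3 GC box matches. Such windows were in the table for 27 of the 36 collagen genes, in 30 windows. The AP-1 motif, searched as TGANTCA, was in 1 of the 30, that of Col6a1, against 6.75% of all 32851 windows of the same length. The GC box, searched as GGGCGG, was in 16 of the collagen windows, against 32.7%. The CCAAT box was in 12 of them, against 33.8%. The TATA box, searched as TATAAA, was in 5, against 12.4%. The core of the heat shock element, searched as GAANNTTC, was in 1, that of Col4a5, against 6.69%. Overlap between motifs was not removed. A match is a description of the letters and not evidence of binding. No window was in the table for Col12a1.

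Without treatment Col6a1 measured 7994 at date 1 and 7998 at date 2, and with LGG 3843 and 3840. The groups did not overlap, and within a group the dates were nearly the same. The fitted log2 change was -1.05 ± 0.13 (SE, n = 2 arrays per group, limma, adjusted p = 0.000709), a 2.07-fold fall. The ratio was -1.05 on each date. Here and below the value after ± is the limma SE, which rests mostly on variance shared across probe sets, not on the spread of the named probe set. Col6a2 measured 6227 and 6101 untreated and 3606 and 3542 with LGG on probe set 1452250_a_at. Its log2 change was -0.78 ± 0.14 (adjusted p = 0.00559), or 1.72-fold, again with like ratios at dates 1 and 2 (-0.78 and -0.78). On the probe set 1426947_x_at, a type whose probes can match other transcripts, Col6a2 measured 4692 and 3217 untreated and 2552 and 1817 with LGG. Within each group the array of date 2 was below that of date 1 there, and the groups still did not overlap (log2 change -0.84 ± 0.16, adjusted p = 0.00822, ratios -0.87 and -0.82).

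Col6a3, the chain needed to complete the heterotrimer, measured 190.4 and 194.7 untreated and 151.7 and 171.7 with LGG. Both LGG arrays were lower, but the difference did not pass (log2 change -0.22 ± 0.26, adjusted p = 0.695). Whether Col6a3 changed less than the other chains was not tested, and its probe set was dimmer, where the pseudocount weighs more. Its log2 change was -0.25 with a pseudocount of 1% of the trimmed mean and -0.16 with 20%. The 4 probe sets of collagen VI had a median log2 change of -0.81, or -0.83 at date 1 and -0.80 at date 2, against 0.01 for all probe sets tested.

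Collagen XII, encoded by Col12a1, is a fibril-associated collagen that links fibrils to their surroundings. Col12a1 measured 1164 and 854.6 untreated and 306.0 and 455.1 with LGG. The groups did not overlap, and the log2 ratio was -1.84 for date 1 and -0.87 for date 2, a difference that was not tested. The fitted log2 change was -1.36 ± 0.26 (adjusted p = 0.00777), a 2.56-fold fall.

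Without date as a block Col6a1 stayed called (adjusted p = 0.0288), while Col12a1 and both probe sets of Col6a2 did not (0.0650, 0.0650 and 0.150). Col6a1 and Col12a1 were called with no intensity trend. With no filter on dim probe sets, limma called 0 collagen probe sets, and also 0 of all 16319 probe sets then tested. At an unadjusted p under 0.05 there were 12 collagen probe sets, against 2296 of all. Leaving out 1 array leaves 1 array in a group, and calls varied with the array left out, for collagens and for all probe sets. The log2 change then ranged from -1.053 to -1.052 for Col6a1 and from -1.63 to -1.09 for Col12a1. For Col6a2 it ranged from -0.80 to -0.77 on 1452250_a_at and from -1.11 to -0.57 on 1426947_x_at.

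**Figure D2:**
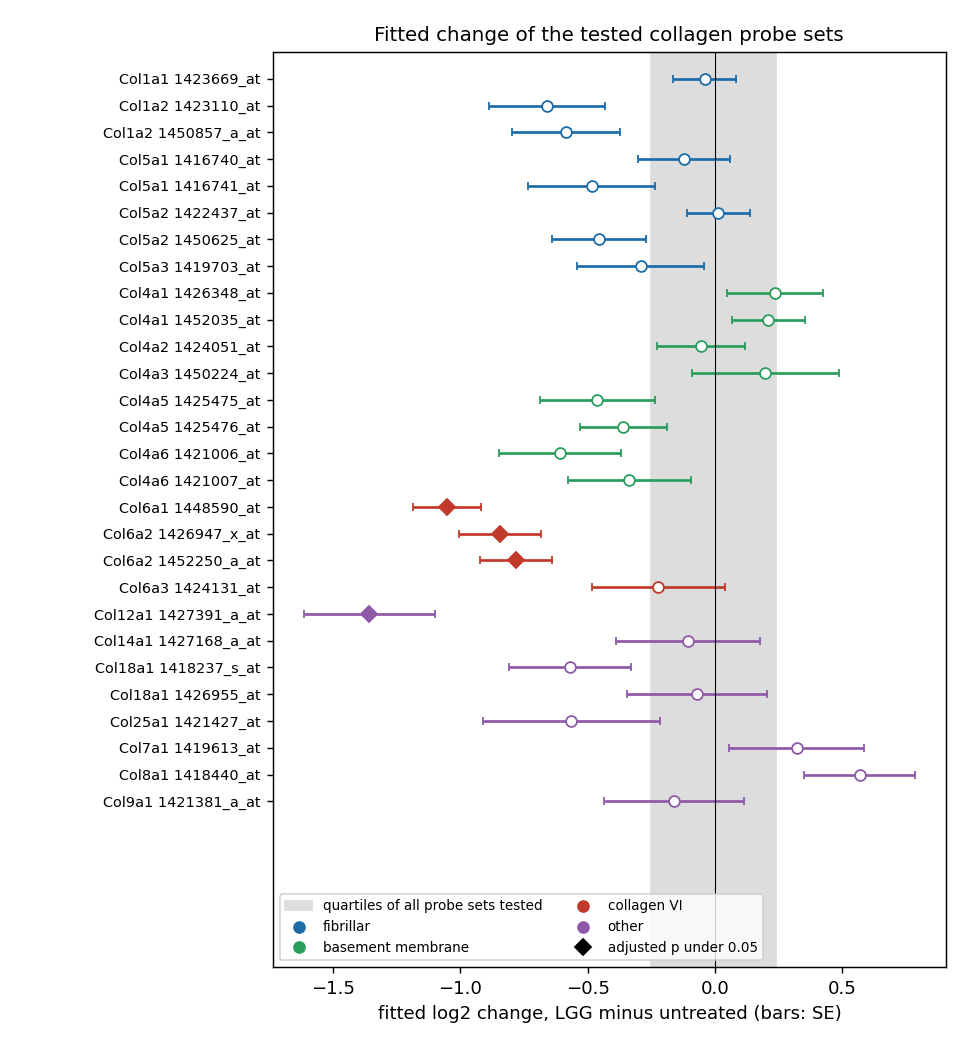
Fitted log2 change (LGG minus untreated, bars show the limma SE) of each tested collagen probe set, coloured by class. Filled diamonds mark those with an adjusted p under 0.05. The grey band spans the quartiles of all probe sets tested, -0.25 to 0.24; 3 of the 4 filled diamonds belong to collagen VI and the fourth is Col12a1 at -1.36.

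Of the 8 tested probe sets of fibrillar collagens 0 passed in either direction (limma; 3 at an unadjusted p under 0.05, against 20.5% of all probe sets), with a median log2 change of -0.37. This median was -0.12 with no filter and -0.23 without untreated replicate 1. Type I collagen, the main collagen of fibrous tissue, is built from the chains of Col1a1 and Col1a2. Col1a1 measured 10156 and 6569 untreated and 9139 and 6916 with LGG. These values follow the date more than the treatment, the groups overlap, and the log2 change was -0.04 ± 0.12 (adjusted p = 0.902). Col1a2 measured 1249 and 1455 untreated and 699.1 and 1131 with LGG on 1450857_a_at. It measured 469.0 and 872.1 untreated and 299.2 and 523.3 with LGG on 1423110_at. Both probe sets were lower with LGG at both dates, although the groups overlapped on the second, and neither passed (log2 changes -0.59 ± 0.21 and -0.66 ± 0.23, adjusted p = 0.129 and 0.112).

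Collagen V forms the core on which type I fibrils grow. Col5a1 measured 2659 and 2568 untreated and 2065 and 2788 with LGG on 1416740_at, with overlapping groups (log2 change -0.12 ± 0.18, adjusted p = 0.767). On 1416741_at it measured 909.4 and 672.9 untreated and 468.5 and 649.8 with LGG (-0.48 ± 0.25, adjusted p = 0.30), a difference that lay almost wholly at date 1 (log2 ratios -0.92 and -0.05). Col5a2 was the only gene of the 8 with 2 tested probe sets whose changes differed in sign. On 1422437_at it measured 11576 and 8994 untreated and 10134 and 10487 with LGG (0.01 ± 0.12, adjusted p = 0.968), and on 1450625_at 3087 and 3652 untreated and 2828 and 2113 with LGG (-0.45 ± 0.19, adjusted p = 0.182). Col5a3 measured 308.5 and 266.5 untreated and 224.3 and 235.3 with LGG and did not pass (-0.29 ± 0.25, adjusted p = 0.567).

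Some fibrillar probe sets had values at date 2 alone and so have no test. At date 2 the type III chain Col3a1, typical of distensible tissue, measured 9118 untreated and 6890 with LGG on 1427883_a_at and 2799 and 1272 on 1427884_at, log2 ratios of -0.40 and -1.12. The second Col1a1 probe set, 1455494_at, measured 3724 and 4519 (0.28), and another of Col5a1, 1434479_at, measured 1562 and 1338 (-0.22). With Col16a1, a fibril-associated chain (667.9 and 520.7, -0.34), these were the 5 collagen probe sets of this kind above the filter. One of the 5, 1427884_at, was over 1.5-fold lower and 0 were over 1.5-fold higher, against 11.5% and 11.2% of the 3675 probe sets with values at date 2 alone and above the filter.

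Collagen IV genes lie in head-to-head pairs. The RefSeq windows of Col4a1 and Col4a2, from 250 bases before to 50 after each start, share 78 bases on opposite strands. Of 8 tested probe sets of collagen IV 0 passed in either direction (limma; 1 at an unadjusted p under 0.05, against 20.5%), and the median log2 change was -0.20, or -0.072 with no filter and -0.34 with a stricter filter. Col4a1, the alpha 1 chain found in nearly all basement membranes, measured 4171 and 4376 untreated and 4731 and 5174 with LGG on 1452035_at. Both LGG arrays were higher, without passing (0.21 ± 0.14, adjusted p = 0.447). On 1426348_at it measured 2432 and 2449 untreated and 2288 and 3626 with LGG, with a high value only on the LGG array of date 2 (0.24 ± 0.19, adjusted p = 0.529). Col4a2, its partner chain, measured 2203 and 2427 untreated and 2156 and 2296 with LGG, overlapping groups with a log2 change of -0.05 ± 0.17 (adjusted p = 0.901).

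The X-linked pair Col4a5 and Col4a6 encodes chains of more specialised basement membranes. Col4a5 measured 2568 and 2645 untreated and 1956 and 2099 with LGG on 1425476_at (-0.36 ± 0.17, adjusted p = 0.259). On 1425475_at it measured 2510 and 1835 untreated and 1290 and 1866 with LGG (-0.46 ± 0.22, adjusted p = 0.267), where the difference was seen at date 1 alone. Col4a6 measured 1175 and 775.0 untreated and 579.9 and 657.4 with LGG on 1421006_at (-0.61 ± 0.24, adjusted p = 0.162). It measured 447.2 and 346.0 untreated and 310.5 and 302.2 with LGG on 1421007_at (-0.34 ± 0.24, adjusted p = 0.478). Both probe sets of Col4a6 and 1 of Col4a5 lay lower on both LGG arrays than on both untreated arrays, and none passed. Of the 8 tested probe sets of collagen IV, 3 were thus lower without overlap, against 23.6% of all probe sets tested. In the other direction there was 1, of Col4a1, against 23.4%. Col4a3, at 101.6 and 81.3 untreated and 146.8 and 78.2 with LGG, lay at the filter (0.20 ± 0.29, adjusted p = 0.763).

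Among the other types, Col12a1 was called and 7 probe sets did not pass. Col8a1, a short-chain collagen that forms hexagonal networks, measured 1159 and 595.5 untreated and 1422 and 1093 with LGG. It was higher with LGG at each date (log2 ratios 0.29 and 0.85), but the groups overlapped because the untreated arrays differed (0.57 ± 0.22, adjusted p = 0.154). Col18a1, the source of endostatin, gave unlike results on its probe sets. On 1418237_s_at it measured 363.2 and 519.9 untreated and 264.5 and 306.5 with LGG (-0.57 ± 0.24, adjusted p = 0.199). On 1426955_at it measured 234.8 and 438.1 untreated and 320.5 and 290.8 with LGG, up at date 1 (0.41) and down at date 2 (-0.55). Col7a1, which forms the anchoring fibrils of stratified epithelia, measured 146.9 and 134.5 untreated and 175.4 and 188.8 with LGG (0.32 ± 0.27, adjusted p = 0.548). Col25a1, a transmembrane collagen, was low only on the LGG array of date 1 (53.5, against 115.3 to 173.5 on the other arrays; adjusted p = 0.400). For Col9a1 the log2 change was -0.16 (adjusted p = 0.803), and for Col14a1 -0.10 (0.886).

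The remaining probe sets were dim. The 20 below the filter had means of 1.8 to 95.6, the highest that of a second Col8a1 probe set, and the 5 dim ones with values at date 2 alone had means of 2.5 to 61.3. For 14 of the 36 genes no probe set reached the filter, among them Col2a1 of cartilage, Col10a1 of growth plate and Col17a1 of hemidesmosomes. No detection calls were used here, so these levels cannot be told from background. Of the 20, 1 was lower and 5 were higher on both LGG arrays than on both untreated arrays, against 16.7% and 15.9% of the 5986 probe sets below the filter. Those whose values were singled out after they were seen are Col15a1, a basement membrane zone collagen, at 55.2 and 49.5 untreated and 19.3 and 14.1 with LGG, and Col20a1, at 17 and 36.4 untreated and 68.3 and 103.1 with LGG on 1425234_at and at 13.4 and 10.1 untreated and 63.8 and 79.5 with LGG on 1425235_s_at. The remaining Col20a1 probe set, 1425236_at, measured 57.9 and 51.4 untreated and 49.5 and 60.8 with LGG, with overlapping groups.

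Collagen ratios lay further below 0 at date 1 than at date 2, a difference that was not tested. At date 1 the ratio was below 0 for 23 of the 28 tested probe sets, against 54.2% of all probe sets tested. At date 2 it was below 0 for 17, against 45.3%. The median log2 ratio of the collagens was -0.39 at date 1 and -0.12 at date 2, against -0.04 and 0.05 for all probe sets. Of the 28, 15 were lower at both dates (31.8% of all probe sets), 3 higher at both (32.3%) and 10 went opposite ways. Both LGG arrays lay below both untreated arrays for 13 (23.6%) and above them for 2 (23.4%). A ratio over 1.5-fold lower at both dates was found for 5 (4.41%), the 4 called probe sets and 1423110_at of Col1a2, and over 1.5-fold higher for 0 (3.52%). Between the dates themselves, 0 of the 28 collagen probe sets were called in the same limma fit, against 0.513% of all. RNA integrity was followed by the control probe sets at both transcript ends. The Gapdh ratio, 3' end over 5' end, was 0.805 untreated and 0.931 with LGG at date 1 and 0.784 and 0.768 at date 2, and that of beta-actin was 1.11 and 1.20 at date 1 and 1.08 and 1.05 at date 2. These ratios moved with treatment at date 1, where more collagens were lower, and their part in the result was not tested.

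**Figure D3:**
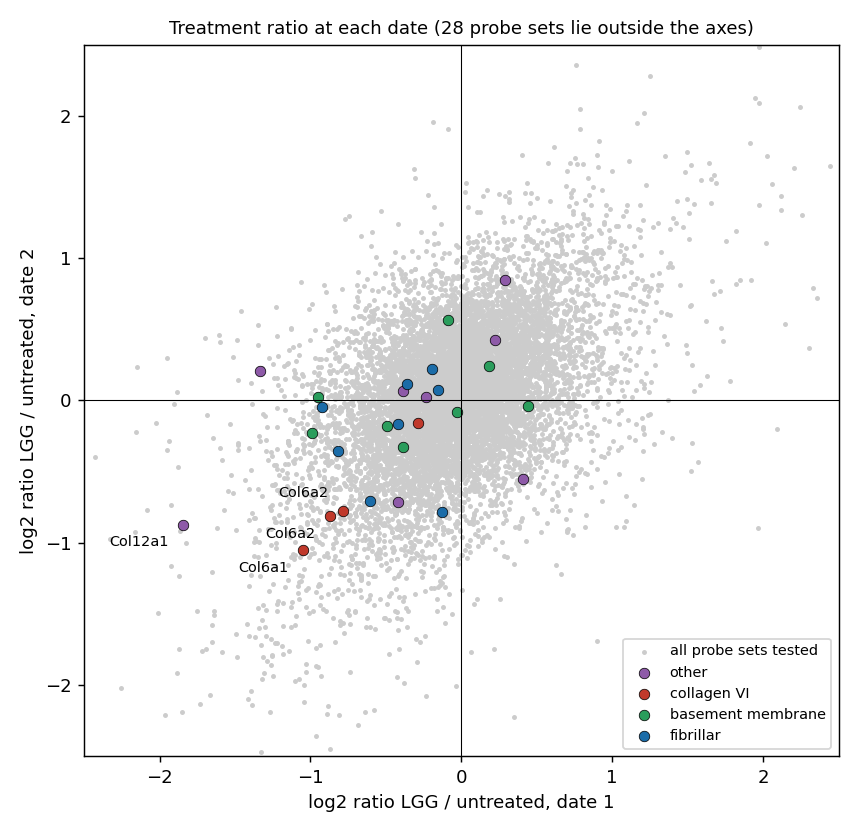
Log2 ratio of LGG over untreated at date 1 (horizontal) and date 2 (vertical) for all probe sets tested (grey) and the tested collagens, coloured by class; 28 probe sets lie outside the axes. The called probe sets of Col6a1, Col6a2 and Col12a1 lie at the lower left, and more collagens lie left of 0 (23) than below 0 (17).

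The mesenchymal markers, which collagen-producing cells express, were followed beside the collagens. Of the 9 tested, 2 fell, Cdh11 (log2 change -1.11) and S100a4 (-0.91), 0 rose and 7 did not pass, against 3.5% of all genes lower and 3.01% higher, and their median log2 change was -0.25. Their summed intensity over 11 markers was 30425 and 28307 untreated and 25326 and 21096 with LGG. A few bright genes weigh most in this sum. Vim was at 12489 and 10300 untreated and 9598 and 9532 with LGG, and Cdh11 at 4518 and 5367 untreated and 2902 and 1765 with LGG. Acta2 was at 4917 and 4515 untreated and 5042 and 4255 with LGG. Twist2, a dim marker, was at 173.4 and 123.9 untreated and 158.8 and 238.8 with LGG. Vim (-0.25), Acta2 (-0.02) and Tagln (-0.06) did not pass. Of 3 tested epithelial markers 0 passed in either direction by limma, and their sum over 11 markers was 2429 and 3297 untreated and 3397 and 2903 with LGG. Kdr was the only endothelial and Cd68 the only immune marker tested, and both were called higher (1.29 and 1.06), while the other markers of these lists on the array were below the filter. Among these, Pecam1 was at 48.0 and 34.1 untreated and 12.1 and 21.3 with LGG, and Tek at 149.4 and 96.1 untreated and 36.8 and 51.4 with LGG. Lyz2 was at 116.7 and 146.9 untreated and 98.0 and 14.7 with LGG, and Ptprc at 37.2 and 15.4 untreated and 23.2 and 19.5 with LGG. Cdh5 was at 64.7 and 49.9 untreated and 41.6 and 50.3 with LGG, and Emcn at 71.0 and 59.8 untreated and 59.6 and 55.0 with LGG. Cd3e was at 20.2 and 25.1 untreated and 88.7 and 24.7 with LGG. The summed level over 5 endothelial markers was 469.3 and 368.8 untreated and 546.6 and 507.2 with LGG. It includes Kdr, at 136.2 and 128.9 untreated and 396.5 and 329.2 with LGG. Over 4 immune markers it was 320.1 and 288.6 untreated and 484.0 and 347.9 with LGG. That sum includes Cd68, at 146.0 and 101.2 untreated and 274.1 and 289.0 with LGG. The part of these markers in the collagen result was not tested.

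Genes that make, process, bind or degrade collagen were counted by their brightest probe set in 6 lists. Of 48 tested, 5 fell, against 3.5% of all genes, 0 rose, against 3.01%, and 43 did not pass. The same shares are the background for each list, and the lists are small. They were drawn up with earlier results of these data known, so no set test was run. In the list of synthesis and folding 0 of 15 passed in either direction by limma, and the median was 0.04. Serpinh1, the collagen chaperone Hsp47, measured 6904 and 6432 untreated and 7305 and 6724 with LGG (log2 change 0.07), and the prolyl hydroxylase subunit P4hb had a change of 0.10. P4ha1 (-0.35), P4ha2 (-0.28), Plod2 (-0.39) and Crtap (-0.46) were lower with LGG at both dates, without passing. Plod1 (0.30) and Sec23a (0.21) were higher at both, also without passing. Creb3l1, a transcription factor that activates type I collagen, measured 1345 and 1157 untreated and 915.2 and 595.3 with LGG, just short of the threshold (-0.74 ± 0.21, adjusted p = 0.0593), and Tmem38b, an ion channel of the endoplasmic reticulum, had a change of 0.54.

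Of 7 genes of processing and crosslinking, Lox fell and 6 did not pass (median -0.12). Lox, which oxidises lysines so that collagen can be crosslinked, measured 10931 and 9834 untreated and 7827 and 7047 with LGG (-0.48 ± 0.12, adjusted p = 0.0260). A second Lox probe set, 1448228_at, also passed (-0.81, adjusted p = 0.0106). Loxl1 and Loxl3 had changes of -0.65 and -0.37 without passing. Pcolce, which enhances cleavage of the procollagen end, was at 3704 and 3770 untreated and 3911 and 3501 with LGG (-0.01).

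Of 8 tested fibril partners, 3 fell and 5 did not pass (median -0.26), and the 3 are small leucine-rich proteoglycans, a family that binds collagen fibrils. Of the same family, Bgn did not pass, and Lum and Prelp were below the filter. Decorin, Dcn, measured 7734 and 8376 untreated and 4085 and 4474 with LGG (-0.91 ± 0.13, adjusted p = 0.00140). Fibromodulin, Fmod, measured 1660 and 531.6 untreated and 746.4 and 234.4 with LGG (-1.11 ± 0.22, adjusted p = 0.00973). For Fmod the dates differed more than the groups did, the groups overlapped, and each LGG array was lower than the untreated array of its date. Ogn, osteoglycin, measured 1037 and 632.1 untreated and 383.9 and 346.1 with LGG (-1.10 ± 0.24, adjusted p = 0.0149), and its second probe set did not pass (-0.72, adjusted p = 0.0766). Biglycan, Bgn (-0.34), Postn (-0.18), fibronectin, Fn1 (-0.06) and Sparc (0.10) did not pass.

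Of 7 tested collagenases and inhibitors, Timp3 fell and 6 did not pass (median -0.29). Timp3, a metalloproteinase inhibitor bound to matrix, measured 8947 and 7985 untreated and 6046 and 4359 with LGG (-0.72 ± 0.13, adjusted p = 0.00699), and its other 3 probe sets also passed, with changes from -1.12 to -1.07. The membrane collagenase Mmp14 (-0.48), Mmp16 (-0.63) and the inhibitor Reck (0.60) did not pass. Of 4 receptors and uptake genes 0 passed in either direction by limma (median -0.02). The collagen receptor kinases Ddr1 and Ddr2 had changes of -0.34 and 0.58, and Itgb1, the beta 1 integrin, -0.01. Of 7 tested basement membrane partners 0 passed in either direction by limma (median -0.16), with changes of -0.68 for nidogen 2, Nid2, and -0.45 for the laminin chain Lamb1.

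Without date as a block only Dcn of these 5 genes stayed called (adjusted p = 0.0464; Lox 0.186, Timp3 0.127, Fmod 0.418, Ogn 0.105). With 1 array left out, which also drops the block, 0 of the 5 stayed called without either untreated replicate, Timp3 and Dcn did without LGG replicate 1, where Creb3l1 was called as well (-1.04, adjusted p = 0.0267), and Dcn did without LGG replicate 2, and the log2 change of Fmod was -1.90 and -0.33 without LGG replicates 1 and 2 and -0.32 and -1.91 without untreated replicates 1 and 2.

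**Figure D4:**
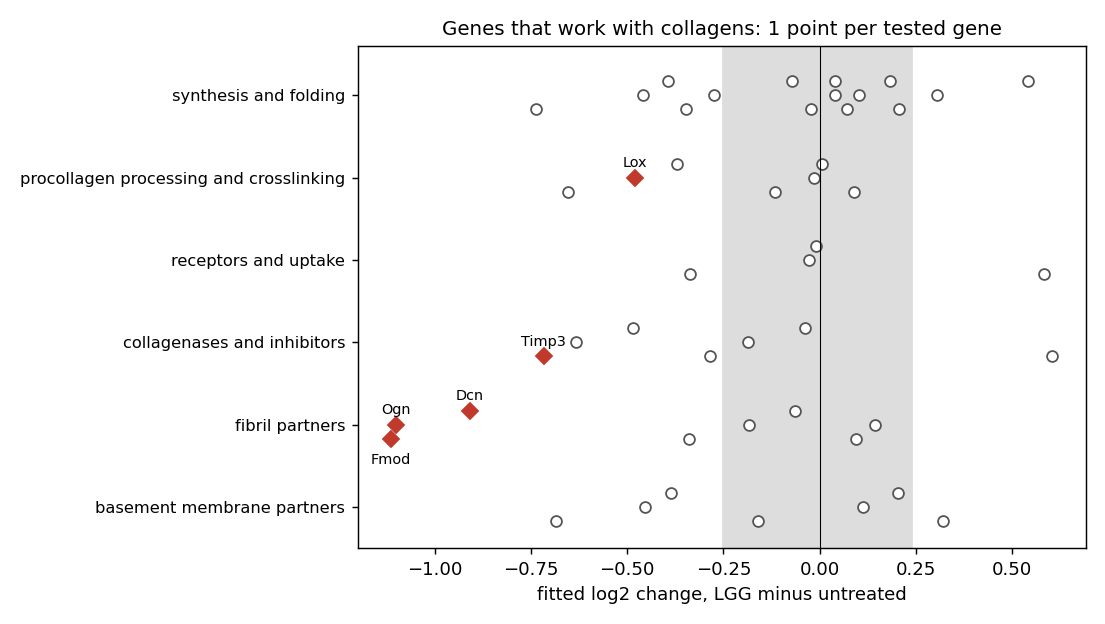
Fitted log2 change (LGG minus untreated) of each tested gene in 6 lists of genes that work with collagens, 1 point per gene at its brightest probe set, with red diamonds for an adjusted p under 0.05 and a grey band for the quartiles of all probe sets tested. Synthesis and folding genes lie on both sides of 0, from -0.74 to 0.54, and the diamonds are Lox, Timp3, Dcn, Fmod and Ogn, all below 0.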

How the data were processed

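RNA was extracted with Trizol and a Qiagen kit, per the labels. Linear intensity was deposited in 1 table covering 4 arrays; the sources used here do not give software, scaling or detection filters. The trimmed means (lowest and highest 2% left out) were 500.1 to 513.5, so values were used as deposited. After 64 control probe sets were removed, 16319 were complete, of which 10333 averaged 101 or more (20% of the mean trimmed mean) and were tested on log2(intensity + 25.2), a pseudocount of 5%.

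Limma 3.58.1 in R 4.3.3 was fitted with group and date and an intensity trend, two-sided, with p-values adjusted by Benjamini-Hochberg across the whole tested table (threshold 0.05). The dates in the titles pair the arrays; across probe sets, the date differences of the groups correlated at 0.27. With 1 residual and 12.5 prior degrees of freedom, calls rest mostly on variance shared across probe sets. The smallest p of an exact permutation over arrays that ignores the dates is 0.333, and a permutation kept within dates has fewer arrangements. In simulated data every change was larger than that of any called collagen, so recovery at the sizes reported here was not examined. The changed probe sets were recovered there, but in most runs false calls exceeded the nominal rate.

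The platform annotation gave 20393 probe sets 1 symbol, 691 several and 1606 none. All 36 collagen genes matched RefSeq (GRCm38.p6) by identifier, with the same symbol. No array build is given, so coordinates are only those of the RefSeq promoter table. The text names collagen probe sets that passed, the up to 4 brightest tested of each class and all probe sets of those genes. It also names those above the filter at date 2 alone. Of each related list it names the members that passed and up to 2 others, those that moved furthest while keeping 1 sign on each date. Serpinh1, P4hb, P4ha1, P4ha2, Plod1, Plod2, Crtap, Sec23a, Pcolce, Fn1, Sparc, Lum, Prelp, Mmp14, Itgb1, the markers and the remaining tested or dim collagens were added after their values were seen. Members and lists were chosen with earlier results of these data known. Figures used matplotlib 3.10.9.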

Additional observations from a re-analysis of the deposited data

How the results depend on the processing

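The count of collagen probe sets called lower (4) was 4, with the same members, under quantile normalization, median centring, the other pseudocounts and a stricter filter. It was 0 with no filter, 2 with no intensity trend, 1 with no replicate block (date not fitted) and 0 to 4 with 1 array left out; 0 were called higher under every alternative run. Over all probe sets, 399 lower and 278 higher became 0 and 0 with no filter, 214 and 164 with no trend, 58 and 39 without the block, and 0 to 370 and 0 to 268 with 1 array left out. The related lists (5 lower, 0 higher) gave 0 with no filter, 2 with no trend, 1 without the block and 0 to 3 with 1 array left out, the 3 being Timp3, Dcn and Creb3l1. With no filter the median log2 change was -0.081 for all collagens -0.12 for fibrillar ones, -0.072 for collagen IV and 0.0068 (from -0.13) for other types; with the stricter filter it was -0.34 for collagen IV and -0.84 for collagen VI, and with 1 array left out collagen VI ranged from -0.92 to -0.67 and fibrillar collagens from -0.34 to -0.23. Among named probe sets, signs turned only for those that did not pass: Col5a2 1422437_at under quantile normalization (-0.041) and, with 1 array left out, between -0.17 and 0.20, Col1a1 1423669_at between -0.35 and 0.27, Col5a1 1416740_at between -0.34 and 0.093, Col4a1 1426348_at between -0.092 and 0.57, Col4a2 between -0.12 and 0.014 and Col18a1 1426955_at between -0.49 and 0.35. The causes were not tested, except that leaving out 1 array leaves the dates unbalanced. The alternative without a filter tests more, dimmer probe sets.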
